A study of Drosophila melanogaster with 12 samples.

Results

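Genes of protein folding and of antioxidant defence were followed in heads of male Drosophila melanogaster withdrawn from pentylenetetrazol (PTZ), a convulsant that blocks GABA-A receptors. The members were chosen by name: a gene was taken if its current symbol is that of a heat shock protein, J protein, chaperonin subunit, FK506-binding protein, endoplasmic reticulum chaperone, heat shock factor, superoxide dismutase, peroxiredoxin, thioredoxin, thioredoxin reductase or Keap1. The rule found 36 of the 6646 genes with a value, 26 of folding and 10 of antioxidant defence. The rule itself uses names and no measured value.

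The flies were unmated Oregon-R males, a wild-type stock. Their age, put at 3 to 4 days of age by the series text and at 4 to 5 days by the sample labels, refers to the start of treatment in the former. Kept 30 to a vial, they ate food with 8 mg/ml PTZ for 7 days. They then returned to normal food, and heads were collected at day 8, day 10 or day 14, after 1, 3 or 7 days of withdrawal. The untreated males stayed on normal food throughout. Neither group carried a transgene or mutation named in the labels. Each RNA came from pooled heads of frozen flies separated by sieving. Each of the 12 two-colour arrays of spotted cDNA, 4 biological replicates per day by the series text, set withdrawn heads against untreated heads of the same day, and the study's title asks which expression changes follow one another during withdrawal.

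Molecular chaperones bind proteins that are not yet folded or have lost their fold. Hsp70 proteins take up such chains with the help of J proteins, chaperonins fold them inside a closed barrel, and Hsp90 proteins finish selected clients, while calnexin and protein disulfide isomerase act on proteins that enter the secretory pathway. Superoxide dismutases turn superoxide into hydrogen peroxide, which peroxiredoxins reduce with electrons passed on by thioredoxin and thioredoxin reductase. Flies have no glutathione reductase, so thioredoxin reductase also keeps glutathione reduced.

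Every value below is a log2 ratio on an array whose median over all spots was set to 0, read as withdrawn over untreated. This direction follows the channel labels, which put the withdrawn heads in Cy5 on all 12 arrays, and it is not settled. The series text states that the dyes were swapped on 2 arrays of each day without saying which, and for day 10 replicates 1, 2 and 3 the description of the labelling gives withdrawn heads Cy3. Above 0 therefore means higher in withdrawn heads only if the channel labels hold. A pair of colours gives a ratio and no level, and in whole heads fewer cells of a type and less RNA per cell cannot be told apart.

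The arrays did not measure the members equally. Day 10 arrays held 27 to 32 of the 36 members, while those of day 14 held 33, 16, 27 and 6 in replicates 1 to 4. The 4 day 8 columns were identical wherever they overlapped, for example at 4790 of 4790 spots shared by replicates 1 and 2, and were counted as 1 sample, which held 10 members. Across all genes, which share their arrays and are not independent, r was 0.50 for day 10 replicates 1 and 2 and 0.55 for replicates 3 and 4, while any other pairing of that day gave -0.07 to 0.03. Precision is limited by the few arrays. Some well-known genes of both systems, among them Hsp83, Hsc70-4, Sod1, Cat and cnc, are not analysed here, and a spot pair naming both Hsp70Aa and Hsp70Ab was left out.

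No member passed the test at any time. In limma, with Benjamini-Hochberg adjustment over all genes and a threshold of 0.05 on the adjusted p, 0 of 29 members tested were called at day 10, where 0% of 4661 genes were called. At day 14 it called 0 of 17 members and 0% of 3010 genes. The difference from day 10 to day 14 and the mean of both days each gave 0 of 15 members and 0% of 2385 genes. One-class SAM was recoded here on the same gene values, with the signs of a day's 4 arrays flipped. It was not the SAM 2.21 program named by the study. It called 2 genes at day 10 and 0 at day 14, none of them a member. Testing at a day required that 3 or more of the 4 columns held a value, and 5 members were tested at neither day. Each SE below comes from the limma fit, which pools the spread over the days and draws it toward that of other genes. An SE therefore need not match the SD of the arrays beside it. The fit treats the 4 arrays of a day as independent, although those of day 10 correlated in pairs.

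The share of members with small p-values lay near that of all genes. At an unadjusted p under 0.05 in limma, 4 of 29 members stood out at day 10 (Hsp60C, CCT2, Gp93 and Keap1), or 13.8% against 13.2% of all genes tested. At day 14 it was 1 of 17 members (Cnx99A), or 5.88% against 6.64%. For the difference between days it was 0 of 15 members against 7.21% of genes, and for the mean of both days 2 of 15 (Hsp60C and Cnx99A), or 13.3% against 12.7%.

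Members with 1 sign on every array were counted in the same way. At day 10, 8 of 29 lay above 0 on each array that measured them (CCT2, CCT8, Hsp60C, Hsc70-5, Cnx99A, Fkbp39, Trxr1 and Trxr2), or 27.6% against 12.2% of all genes. CCT8, Hsp60C and Fkbp39 had 3 arrays and the other 5 had 4. Below 0 on each array were 3 members (DnaJ-H, Gp93 and Prx6c), or 10.3% against 13.1% of genes. At day 14, 2 of 17 lay above 0 on each array (Cnx99A and Prx6c) against 14.5% of genes, and 2 below 0 (Sod2 and Prx6a) against 12.8%.

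**Figure D1:**
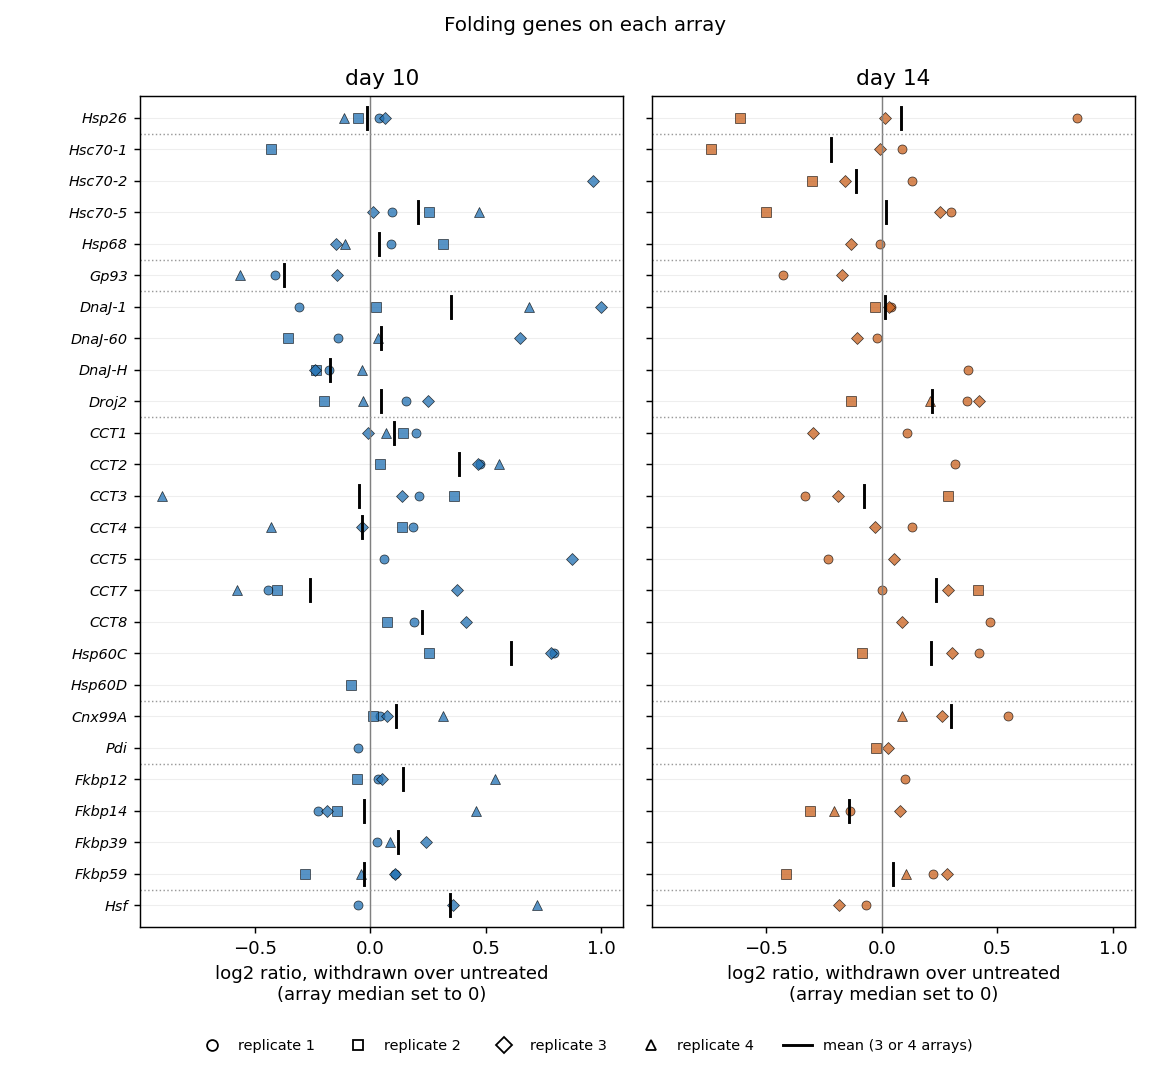
Log2 ratio of withdrawn over untreated heads for the 26 folding genes on each day 10 and day 14 array, ordered by role, with the array median set to 0. Each symbol is 1 array and the black bar is the mean where 3 or 4 arrays have a value. At day 10 the 3 values of Hsp60C lie to the right of 0 and those of Gp93 to its left.

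Among the chaperonins, which fold proteins in a ring, Hsp60C had the largest day 10 mean of all members tested. Hsp60C is a relative of the mitochondrial chaperonin Hsp60. It stood at 0.80, 0.26 and 0.78 on day 10 replicates 1, 2 and 3 and had no value on replicate 4. All 3 values lie above 0, that of replicate 2 well below the others, and the mean was 0.61 (SE 0.15, n = 3, adjusted p = 0.166 in limma). At day 14 it stood at 0.42, -0.09 and 0.30 on replicates 1, 2 and 3 (mean 0.21, SE 0.15, adjusted p = 0.808 in limma), and the ranges of both days overlap. The mean of both days was 0.41 (SE 0.11, adjusted p = 0.207 in limma).

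The low day 10 value of Hsp60C in replicate 2 came from averaging clones. The gene is on 2 clones, each spotted as a twin pair. Clone 1 stood at 0.80, 0.76 and 0.78 on replicates 1, 2 and 3 (0.78 ± 0.02, SD, n = 3), whereas clone 2 had its only day 10 value, -0.25, on replicate 2. Fitted by clone, a setting chosen after seeing the data, clone 1 had a mean of 0.78 (SE 0.12, adjusted p = 0.0658 in limma) at day 10. At day 14 clone 1 stood at 0.07, -0.09 and 0.30, below each of its day 10 values, and clone 2 at 0.77 on replicate 1, the only array of that day with a value for it. How many of all clones separate by day as clone 1 does was not counted. Which clone follows the Hsp60C transcript was not tested.

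**Figure D2:**
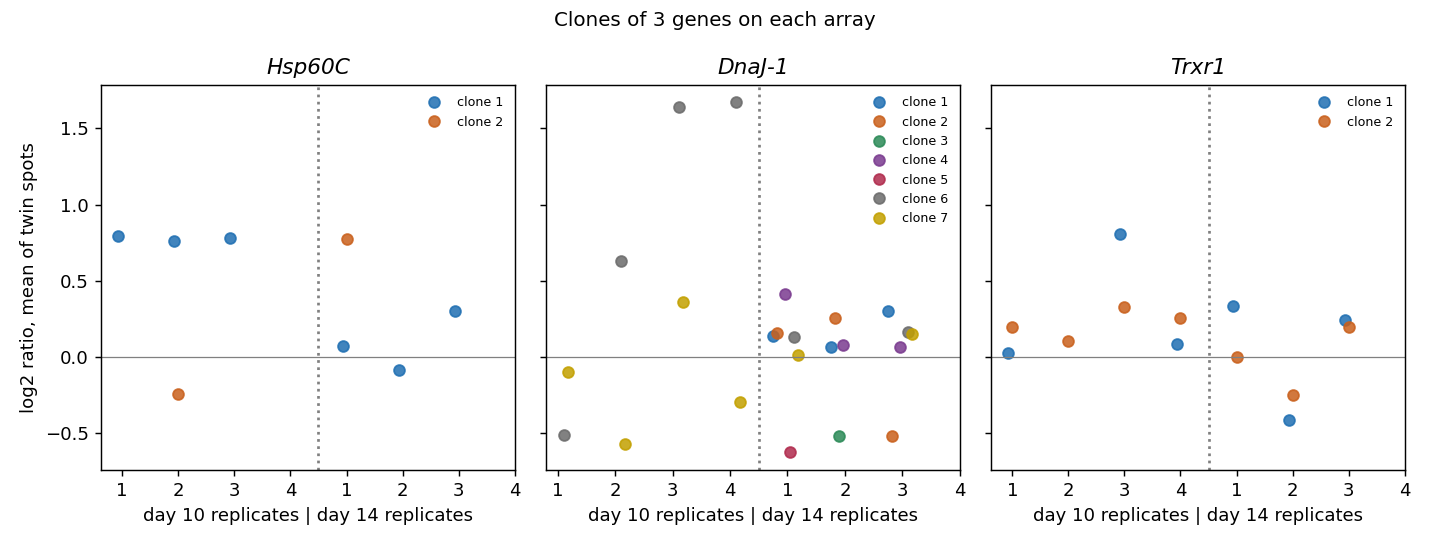
Log2 ratio of each clone, as the mean of its twin spots, on the day 10 and day 14 replicates for Hsp60C, DnaJ-1 and Trxr1. Clone 1 of Hsp60C stays between 0.76 and 0.80 at day 10, and on replicate 4 of that day the clones of DnaJ-1 lie 1.97 apart.

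The other chaperonin members are subunits of CCT, the cytosolic complex that folds actin and tubulin, and they did not move as a block. CCT2 stood at 0.47, 0.04, 0.46 and 0.56 on day 10 replicates 1 to 4, so that replicate 2 was near 0 and the others were alike (mean 0.38, SE 0.12, n = 4, adjusted p = 0.238 in limma). Its 1 value at day 14, on replicate 1, was 0.32. CCT7 went the other way at day 10, at -0.44, -0.40, 0.38 and -0.58, with replicate 3 alone above 0 (mean -0.26, SE 0.15, adjusted p = 0.479 in limma). Its replicate 4 value averages twin spots at -1.094 and -0.062. With spots over 1 apart left out, the day 10 mean was -0.156. At day 14 CCT7 stood at -0.00, 0.41 and 0.29 on replicates 1, 2 and 3 (mean 0.23, SE 0.18). Its difference between days, 0.50 (SE 0.24, adjusted p = 0.641 in limma), was the largest above 0 among the 15 members tested, and the ranges overlap through day 10 replicate 3.

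The remaining CCT subunits spanned the range between these. CCT8 lay between 0.07 and 0.42 on 3 day 10 arrays and CCT1 between -0.01 and 0.20 on 4. CCT3 and CCT4 were near or above 0 on replicates 1, 2 and 3 and stood at -0.90 and -0.43 on replicate 4. In all, 4 of the 7 chaperonins tested at day 10 had a mean above 0 and 3 below, with a median of 0.10 and means from -0.26 to 0.61. CCT5 and Hsp60D were not tested, with values on 2 arrays of each day and on 1 day 10 array.

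Of the Hsp70 proteins, Hsc70-5, the mitochondrial form, was measured most fully. It stood at 0.10, 0.26, 0.01 and 0.47 on the day 10 replicates, all above 0, with a mean of 0.21 (SE 0.14, n = 4, adjusted p = 0.550 in limma). At day 14 it stood at 0.30, -0.50 and 0.25 on replicates 1, 2 and 3, so replicate 2 lay apart on the low side (mean 0.02, SE 0.17). Hsc70-1, a constitutive Hsp70, showed the same outline at day 14, at 0.09, -0.74 and -0.01 (mean -0.22, SE 0.18, adjusted p = 0.828 in limma). Its 1 value at day 10, on replicate 2, was -0.43. Hsp68, a heat-inducible Hsp70, lay between -0.15 and 0.32 over the 6 arrays of days 10 and 14 that measured it, and Hsc70-2 stood at 0.96 on day 10 replicate 3 against -0.30 to 0.13 at day 14.

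Gp93 is the Hsp90 protein of the endoplasmic reticulum and the only Hsp90 member with a value. It stood at -0.41, -0.14 and -0.56 on day 10 replicates 1, 3 and 4 and at -0.43 and -0.17 on day 14 replicates 1 and 3. All 5 values lie below 0, and those of the 2 days overlap. The day 10 mean was -0.37 (SE 0.13, n = 3, adjusted p = 0.281 in limma), and with 2 arrays day 14 was not tested. With the medians of 48 runs of neighbouring spots set to 0 in place of the array median, the day 10 mean was -0.13.

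Cnx99A, the calnexin of the endoplasmic reticulum, had the smallest p of the members at day 14. It stood at 0.04, 0.01, 0.07 and 0.31 on the day 10 replicates (mean 0.11, SE 0.11) and at 0.55, 0.26 and 0.09 on day 14 replicates 1, 3 and 4 (mean 0.30, SE 0.12, n = 3, adjusted p = 0.728 in limma). Both days lie wholly above 0 and overlap. Its mean over both days was 0.20 (SE 0.08, adjusted p = 0.348 in limma), and its clones differed by at most 0.18 on any array that measured both. Pdi, the protein disulfide isomerase, had 3 values on the arrays of both days, from -0.05 to 0.03.

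The J proteins, which deliver clients to Hsp70, held the member with the widest spread at day 10. DnaJ-1, the main heat-inducible J protein, stood at -0.31, 0.03, 1.00 and 0.69 on the day 10 replicates. Replicates 3 and 4 were high and replicates 1 and 2 were not (mean 0.35 ± 0.60, SD, SE 0.18, n = 4, adjusted p = 0.432 in limma). At day 14 its 3 values lay between -0.03 and 0.04. The gene is on 8 clones, of which 7 have a value and 2 were measured at day 10. Clone 6 stood at -0.52, 0.63, 1.64 and 1.67 and clone 7 at -0.10, -0.57, 0.36 and -0.30, so the high values belong mainly to clone 6, while clone 7 was above 0 on replicate 3 alone. On day 14 replicate 1, where 6 clones had a value, they ran from -0.63 to 0.41.

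Droj2, another J protein, was measured on all 8 arrays. It stood at 0.16, -0.20, 0.25 and -0.03 at day 10 (mean 0.05, SE 0.12) and at 0.37, -0.13, 0.42 and 0.21 at day 14 (mean 0.22, SE 0.12, n = 4, adjusted p = 0.752 in limma). On both days replicate 2 was the lowest, and the days overlap. DnaJ-H lay between -0.24 and -0.03 on the day 10 arrays and stood at 0.37 on the 1 day 14 array that measured it, while DnaJ-60 ran from -0.35 to 0.65 at day 10.

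The FK506-binding proteins turn proline bonds in folding chains, and all 4 tested at day 10 had means between -0.03 and 0.14. Fkbp12, the small cytosolic form, stood at 0.03, -0.06, 0.05 and 0.54 on the day 10 replicates (mean 0.14, SE 0.13, adjusted p = 0.674 in limma). Fkbp14, of the endoplasmic reticulum, stood at -0.23, -0.15, -0.19 and 0.46, again with replicate 4 alone high (mean -0.03, SE 0.13). Replicate 4 measured clone 1 alone, which stood at -0.19, -0.31, 0.01 and 0.46, while replicates 1, 2 and 3 average it with clone 2 at -0.26, 0.02 and -0.39. At day 14 Fkbp14 stood at -0.14, -0.31, 0.08 and -0.21 (mean -0.14, SE 0.13), all within the day 10 range except replicate 2. Fkbp39 lay between 0.03 and 0.24 on 3 day 10 arrays, and Fkbp59, a partner of Hsp90, from -0.28 to 0.11 at day 10 and from -0.42 to 0.28 at day 14.

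Hsf, the transcription factor that turns on heat shock genes, stood at -0.05, 0.36 and 0.72 on day 10 replicates 1, 3 and 4. As with DnaJ-1, the pair of replicates 3 and 4 held the high values (mean 0.34, SE 0.16, n = 3, adjusted p = 0.391 in limma). At day 14 Hsf stood at -0.07 and -0.19 on replicates 1 and 3 and was not tested. Hsp26, a small heat shock protein that Hsf controls, stood at 0.04, -0.05, 0.07 and -0.11 at day 10, all near 0. Its day 14 values of 0.84, -0.62 and 0.01 were the most spread of the folding members at that day (mean 0.08, SE 0.21, adjusted p = 0.974 in limma), with replicate 1 high and replicate 2 low.

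**Figure D3:**
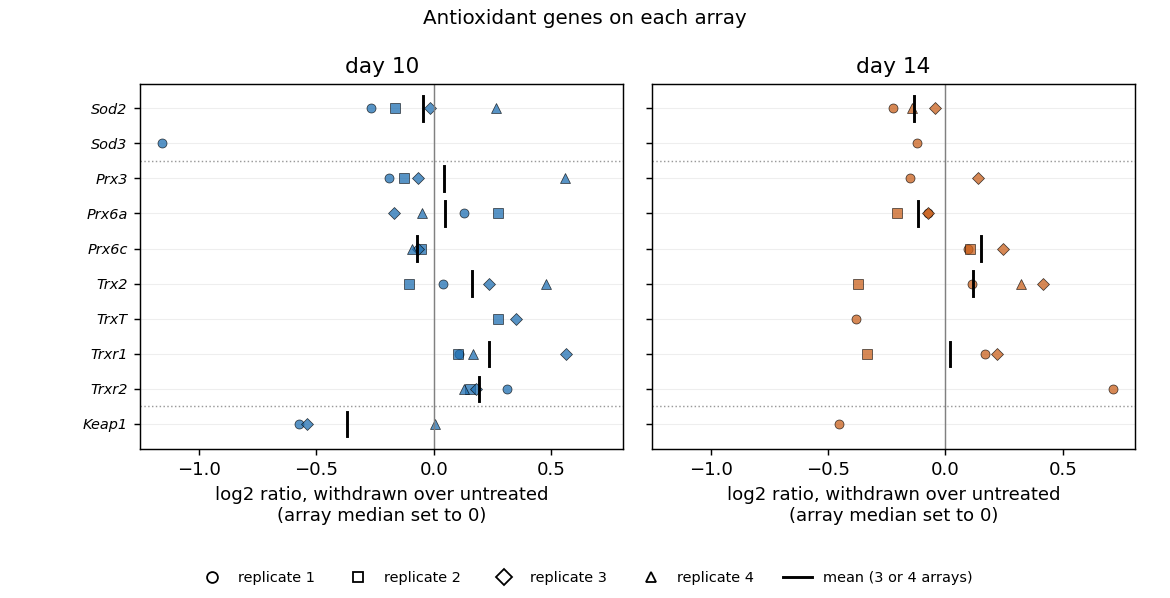
Log2 ratio of withdrawn over untreated heads for the 10 antioxidant genes on each day 10 and day 14 array, with the array median set to 0, symbols by replicate and a bar for the mean where 3 or 4 arrays have a value. Trxr1 and Trxr2 lie to the right of 0 on all 4 day 10 arrays, and Keap1 stands at -0.57, -0.54 and 0.00.

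Both thioredoxin reductases lay above 0 on all 4 day 10 arrays. Trxr1 stood at 0.11, 0.10, 0.57 and 0.17, with replicate 3 apart from the rest (mean 0.24, SE 0.13, n = 4, adjusted p = 0.435 in limma). Trxr2 was tighter between arrays, at 0.31, 0.16, 0.18 and 0.13 (mean 0.20 ± 0.08, SD, SE 0.10, adjusted p = 0.432 in limma). Its twin spots were farther apart, at -0.031 and 0.395 on replicate 3 and at 0.353 and -0.094 on replicate 4. With run medians set to 0 the Trxr2 mean was 0.09. At day 14 Trxr1 stood at 0.17, -0.33 and 0.22 on replicates 1, 2 and 3 (mean 0.02, SE 0.15), and Trxr2 had 1 value, 0.71 on replicate 1. The high replicate 3 value of Trxr1 rests on 1 spot of clone 1, whose twin spots read 1.40 and 0.21 there, and without that array the day 10 mean was 0.13. Clone 2 stood at 0.20, 0.10, 0.33 and 0.26 over the 4 arrays.

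Trx2, a cytosolic thioredoxin, stood at 0.04, -0.10, 0.24 and 0.48 at day 10 (mean 0.16, SE 0.14) and at 0.11, -0.37, 0.41 and 0.32 at day 14 (mean 0.12, SE 0.14, n = 4, adjusted p = 0.900 in limma). Replicate 2 was the only array below 0 on both days. TrxT, a thioredoxin of the testis, had values of 0.27 and 0.35 on 2 day 10 arrays and -0.38 on 1 day 14 array and was not tested.

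Of the peroxiredoxins, Prx6c was the only member whose day 14 arrays all lay on 1 side of its day 10 arrays, 1 of 15 members or 6.67%, against 9.06% of all genes. It stood at -0.06, -0.07 and -0.09 on day 10 replicates 2, 3 and 4 (mean -0.07 ± 0.02, SD, n = 3) and at 0.10, 0.11 and 0.25 on day 14 replicates 1, 2 and 3 (mean 0.15 ± 0.08, SD, n = 3). The days do not overlap, and the difference was 0.22 (SE 0.15, adjusted p = 0.732 in limma). On day 14 replicate 1 the value averages clones at 0.29 and -0.09, and clone 2 alone, which all 6 arrays measured, stood at -0.09, 0.11 and 0.25 at day 14. Its day 10 values on replicates 2, 3 and 4 were -0.06, -0.07 and -0.14, so within this clone the days overlap.

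Prx3, the mitochondrial peroxiredoxin, stood at -0.19, -0.13, -0.06 and 0.56 on the day 10 replicates, with replicate 4 alone above 0, and at -0.15 and 0.14 on 2 day 14 arrays. Prx6a ran from -0.17 to 0.27 at day 10 and from -0.21 to -0.07 at day 14. Sod2, the mitochondrial superoxide dismutase, stood at -0.27, -0.16, -0.02 and 0.26 at day 10 (mean -0.05, SE 0.11) and at -0.22, -0.04 and -0.14 on day 14 replicates 1, 3 and 4 (mean -0.14, SE 0.13, n = 3, adjusted p = 0.851 in limma). The day 14 values lie below 0 and inside the range of day 10. Sod3, the extracellular form, had 1 value per day, -1.16 on day 10 replicate 1 and -0.12 on day 14 replicate 1.

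Keap1 holds back the transcription factor cnc, which turns on antioxidant genes. It stood at -0.57, -0.54 and 0.00 on day 10 replicates 1, 3 and 4, with a mean of -0.37 (SE 0.16, n = 3, adjusted p = 0.374 in limma). The value of replicate 4 averages twin spots at 0.48 and -0.47, the second of which is near the other arrays. Without that array, over replicates 1 and 3 alone, the mean was -0.56. It was -0.267 without replicate 1 and -0.286 without replicate 3. The 1 value of Keap1 at day 14, on replicate 1, was -0.45.

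Taken by class, the folding and antioxidant members had medians near 0 on both days. At day 10 the 21 folding members tested had a median of 0.046, with 13 above and 8 below 0, and the 8 antioxidant members a median of 0.045, with 5 above and 3 below, beside 0.01 over all genes. With run medians set to 0 the day 10 medians were 0.098 and 0.011, and without replicate 4 they were 0.085 and -0.003. At day 14 the medians were 0.03 over 12 folding members (8 above, 4 below), 0.02 over 5 antioxidant members (3 above, 2 below) and 0.01 over all genes. The difference from day 10 to day 14 had a median of 0.02 over 10 folding members, 5 of which were below 0. Over 5 antioxidant members it was -0.09, with 4 below 0. Over all genes the median difference was -0.007, with 1225 of 2385 below 0. For the mean of both days the medians were 0.07 and 0.04, beside 0.015 over all genes. The members varied between arrays about as much as other genes did at day 10, with a median SD of 0.21 for folding, 0.23 for antioxidant and 0.22 for all genes. At day 14 the median SD was 0.26 over 12 folding members, 0.09 over 5 antioxidant members and 0.21 over all genes.

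**Figure D4:**
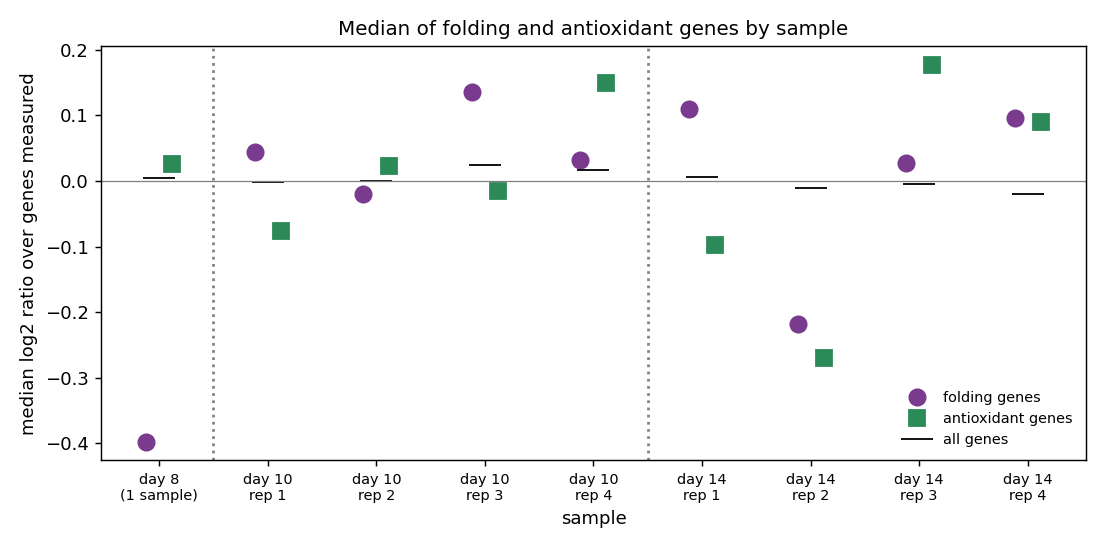
Median log2 ratio over the folding genes, the antioxidant genes and all genes measured in each of the 9 samples (the 4 identical day 8 columns count as 1), with the array median over spots set to 0. Both classes lie below 0 on day 14 replicate 2, and the single day 8 sample has a folding median of -0.40 over 8 genes.

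The array medians moved more than the day medians. The folding median was 0.04, -0.02, 0.14 and 0.03 on day 10 replicates 1 to 4, and the antioxidant median was -0.08, 0.02, -0.02 and 0.15. Between the pairs of day 10 arrays, the mean of replicates 3 and 4 lay above that of replicates 1 and 2 for 21 of 29 members, or 72.4%, against 53.3% of all genes. The median gap was 0.17 for members and 0.04 for all genes. In that direction DnaJ-1 at 0.98, Hsf at 0.59 and DnaJ-60 at 0.59 had the widest gaps of the members tested. With replicates 1 and 2 alone the folding median was -0.01 and with 3 and 4 alone 0.14, settings chosen after seeing the data.

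Replicate 2 stood apart at day 14. It was the lowest array for 12 of the 15 members tested that it measured, or 80.0%, against 39.0% of all genes. Replicate 3 was the lowest for 0 of 17 members, against 24.7% of all genes. The medians that follow are those of replicate 2. Its medians were -0.22 over 12 folding and -0.27 over 4 antioxidant members, beside -0.01 over all genes. The exceptions were CCT3 and CCT7, which were highest there at 0.29 and 0.41, and Prx6c. On the other day 14 arrays the folding medians were 0.11, 0.03 and 0.10 and the antioxidant medians -0.10, 0.18 and 0.09. Without replicate 2 the day 14 medians were 0.17 for each class, against 0.03 and 0.02 with it. Without replicate 1 they were -0.01 and -0.06 and without replicate 3 -0.01 and -0.08, so the sign of both medians depends on single arrays.

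Medians of the markers of other tissues also differed between these arrays. The fat body markers, 10 genes, had medians of 0.20, -0.05, 0.20 and 0.53 on day 10 replicates 1 to 4, highest on replicate 4. These medians rest on 8, 6, 10 and 10 genes measured. That array was the highest for 11 of the 27 members tested that it measured, or 40.7%, against 31.4% of all genes. Among these were Fkbp12, Fkbp14, Prx3, Trx2 and Hsf. It was the lowest for 7, or 25.9%, against 25.3% of all genes, among them CCT3, CCT4, CCT7, Gp93 and Prx6c. At day 14 the fat body medians, over 8, 6, 8 and 3 genes, were 0.18, -0.21, 0.21 and 0.17, lowest on replicate 2, as were most members. Other markers differed on day 14 replicate 2. There neuron and glia markers, with 1 gene each, stood at 0.256 and 0.388, and photoreceptor markers at 0.05. Hemocyte and muscle markers, with 2 genes each, stood at 0.13 and -0.088. Neuron markers, with 2 or 3 genes measured, had medians of -0.15 and -0.51 on day 10 replicates 1 and 2. On replicates 3 and 4 their medians were 0.12 and 0.26. Of these markers Csp, also counted among the other folding genes below, stood at -0.15, 0.33 and 0.54 on replicates 1, 3 and 4. The lowest neuron marker value was below 0 on each array, at -0.248, -0.976, -0.568 and -0.895 on day 10 replicates 1 to 4. Glia markers, with 1 to 3 genes, stood at -0.58, 0.05, -0.05 and -0.21 on these arrays. Testis markers, with 1 to 3 of 4 genes measured, stood at 0.58, 0.30, 1.61 and 0.95. Muscle markers, with 2 or 3 genes, had medians of -0.036, 0.096, -0.222 and -0.29 on day 10 replicates 1 to 4, lower on replicates 3 and 4. Hemocyte markers, with 1 to 4 genes, had medians of -0.118, -0.174, 0.255 and 0.069 there. Photoreceptor markers had medians from 0.00 to 0.20 at day 10 and from -0.05 to 0.19 at day 14. The part of these tissues in the members' values was not tested.

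At day 8 there was 1 sample and no test. Of the 10 members with a value, 0 lay beyond an absolute log2 ratio of 1, against 4.27% of 2132 genes. Hsc70-2 at -0.85, DnaJ-1 at -0.81, Cnx99A at -0.70 and Hsp60C at -0.58 were lowest, and Fkbp14 at 0.57 and CCT3 at 0.43 were highest. Hsp68 stood at -0.21, Droj2 at 0.02, Trx2 at -0.14 and Prx6a at 0.20, so 3 of 8 folding members and 1 of 2 antioxidant members lay above 0. Twin spots of the members differed with an SD of 1.26 in this sample over 11 pairs, against 0.21 to 0.42 on the day 10 arrays, so these values are the least precise. The twin spots of Hsp60C read 0.17 and -1.33 and those of Fkbp14 1.42 and -0.29, and 7 of the 10 members remained, without Hsp60C, Fkbp14 and DnaJ-1, once members with spots over 1 apart or a single spot were left out.

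**Figure D5:**
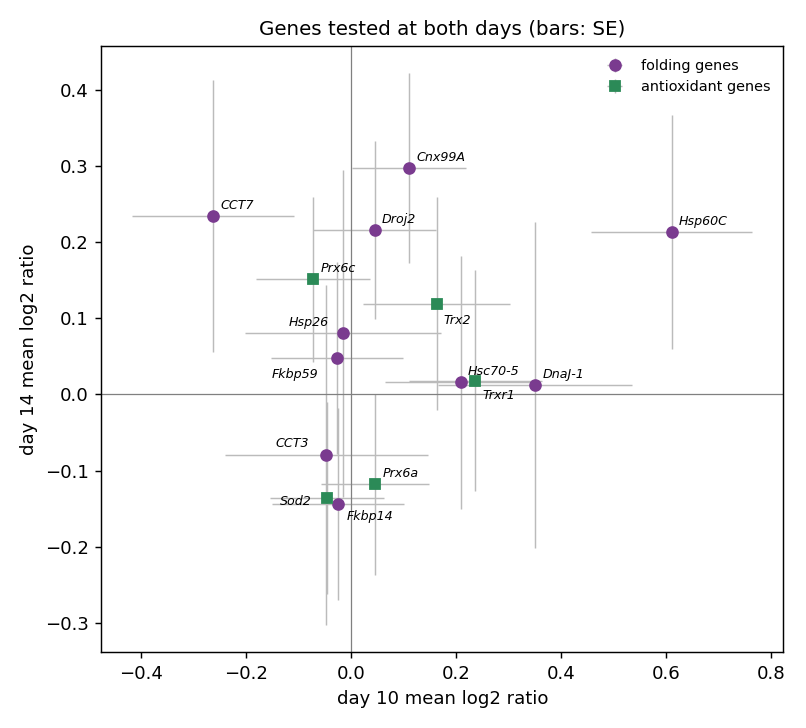
Mean log2 ratio at day 14 against that at day 10 for the 15 members tested at both days, 10 of folding (circles) and 5 antioxidant (squares), with bars of 1 SE from limma. Of the points, 7 lie above 0 on both axes and 3 below, and Hsp60C is the farthest to the right at a day 10 mean of 0.61.

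Across the course of withdrawal, 10 of the 15 members tested at both days had the same sign, 7 above and 3 below 0. The same share over all genes is not given here. Hsp60C had the largest difference below 0, -0.40 (SE 0.22, adjusted p = 0.659 in limma), followed by DnaJ-1 at -0.34 (SE 0.28) and Trxr1 at -0.22 (SE 0.19). Above 0 were CCT7 at 0.50, Prx6c at 0.22 and Cnx99A at 0.19 (SE 0.16). The DnaJ-1 difference sets clones 6 and 7 at day 10 against clones 1 to 7 at day 14, so it does not compare like with like. Clone 6 had a mean of 0.86 at day 10 and 0.15 at day 14, and clone 7 of -0.15 and 0.08. Cnx99A, above 0 on every array of days 10 and 14 that measured it, stood at -0.70 in the day 8 sample, on twin spots at -0.25 and -1.16.

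Genes on further lists outside the naming rule gave no calls either. Of 33 other folding genes, 30 were tested at day 10 (16 above and 14 below 0, median 0.035) and 20 at day 14 (11 and 9, median 0.035), and 0 passed in limma, with 5 (16.7%) and 2 (10.0%) at an unadjusted p under 0.05, against 13.2% and 6.64% of all genes. For the difference from day 10 to day 14, 0 of 19 passed and 4 (21.1%) had an unadjusted p under 0.05, against 7.21% of all genes, with a median of -0.12. The smallest p at day 10 were those of wus, a J-domain protein of the trachea, at 1.26 ± 0.47 (SD, n = 3, adjusted p = 0.0845 in limma), and of Pfdn6, a subunit of the prefoldin that hands chains to CCT, at -0.56 ± 0.21 (SD, n = 3, adjusted p = 0.185 in limma). At day 14 they were those of Sil1, a nucleotide exchange factor for the Hsp70 of the endoplasmic reticulum, at -0.40 ± 0.11 (SD, n = 3), and of ClpP, a mitochondrial protease, at 0.33 ± 0.12 (SD, n = 3).

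The list of other antioxidant genes, 24 in all, is broad. It also holds nub, hyx, whd, Adh and puc, which are not antioxidant genes but count in the shares and medians here. Of the 24, 17 were tested at day 10 (7 above and 10 below 0, median -0.02) and 15 at day 14 (11 above and 4 below, median 0.13). In limma 0 passed on either day, and 0 had an unadjusted p under 0.05. For the difference from day 10 to day 14, 0 of 11 passed and 0 had an unadjusted p under 0.05. Its median was 0.12, with 7 above and 4 below 0. For the mean of both days 0 of 11 passed, and 2 (18.2%) had an unadjusted p under 0.05 in limma, against 12.7% of all genes. The other folding genes gave 2 of 19 there (10.5%). The transcription factor gene foxo stood lowest of the named ones on both days, at -0.22 ± 0.19 and -0.26 ± 0.27 (SD, n = 4). Grx3, a glutaredoxin, stood at -0.22 ± 0.15 (SD, n = 4) at day 10, and ref(2)P, the fly p62 that brings damaged proteins to autophagy, at 0.22 ± 0.14 (SD, n = 3) at day 14.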

How the data were processed

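The values are log2 ratios deposited by the authors, 1 per spot and array. Per the labels they are ratio normalized. Per the series text, images were read with Gene Pix Pro 6.0 and normalized in Acuity 4.0, and a spot had to show fewer than 3% saturated pixels, an R2 between channels of 0.6 or more and a signal to noise ratio of 3 or more. No source used here states the logarithm's base, which was taken as 2. Intensities were not analysed here.

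Deposited column medians ran from -0.31 to 1.59, so each was set to 0. Of 27648 spots, 15116 have 1 gene name and were averaged per gene, 102 with several names were not used, and 12430 have no name here. Symbols were updated through a RefSeq table. A mean per day was fitted to 9 samples and 5291 genes with limma 3.58.1 (lmFit, eBayes, R 4.3.3, prior df 5.1), with the day 8 columns as 1 sample and adjustment over all genes tested. No dye term was used, since no source used here names the swapped arrays. Replicate numbers of days 10 and 14 do not pair the arrays: same-numbered deviations correlated at -0.10, 0.30, 0.15 and 0.12.

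The members, gene lists and tests were chosen with earlier results of these data known. Array-by-array values are given for the 2 members of each role with the smallest p, the 5 smallest p of each comparison and some fixed genes, and for other members by range. Genes of the other lists are the 2 smallest p per day.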

Additional observations from a re-analysis of the deposited data

Results flagged for a closer look

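In 3 genes, 1 day 10 array lay far from the others by Dixon's test. Fkbp14 stood at 0.459 on replicate 4 against -0.23 to -0.15 elsewhere, and Prx3 at 0.559 on the same array against -0.19 to -0.06. On that array Fkbp14 was measured by clone 1 alone, and the other arrays average both of its clones. Trxr1 stood at 0.567 on replicate 3 against 0.10 to 0.17, and 1 spot at 1.40 against its twin at 0.21 carries that value. Without that array its day 10 mean was 0.127, against 0.237 with it. There were 26 groups of 4 arrays to test, and chance flags about 1 in 20. Fat body markers were also highest on day 10 replicate 4, and their part in these values was not tested.

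Prx6c lay below 0 on every day 10 array that measured it and above 0 on every day 14 array, a difference of 0.222. The difference itself was tested and was not called (SE 0.15, adjusted p = 0.732 in limma), and the values of clone 2 alone overlap between the days.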

How the results depend on the processing

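No member was called under any alternative run with array medians at 0. In the values as deposited, where the median of all genes was -0.23 at day 10 and 1.17 at day 14, limma called 3001 genes at day 14, 2352 for the difference and 1987 for the mean of both days. The members called were then 17, 15 and 14. The deposited scale also turned Fkbp14 (0.925), Hsc70-1 (1.017) and Sod2 (0.76) above 0 at day 14, and its class medians were -0.202 (folding) and -0.203 (antioxidant) at day 10 and 1.222 and 1.188 at day 14. All-gene calls at day 10 were 3 with a value required on all 4 arrays and 2 by the recoded one-class SAM. Leaving out each replicate gave 0 to 80 calls at day 10, with 80 without replicate 1, 14 without replicate 2 and 1 without replicate 4. It gave 0 to 3 for the difference, with 3 without day 10 replicate 1, and 0 to 5 for the mean, with 5 without that array and 1 without day 10 replicate 4. The cause was not tested. With the replicate block, although the numbers do not pair the arrays, 1 gene and no member was called for the difference.

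The folding median at day 10 was 0.098 with run medians set to 0, -0.03 with the signs of replicates 1, 2 and 3 turned, -0.061 with 3 and 4 turned and -0.022 with 2 and 3 turned. It was -0.007 over replicates 1 and 2 and 0.135 over 3 and 4, and 0.057 to 0.118 leaving out each replicate. The antioxidant median was 0.011 with run medians set to 0, -0.072 with 3 and 4 turned, 0.14 over replicates 3 and 4 and -0.003 to 0.099 leaving out each replicate. Of 31 day means of the members given array by array, 10 changed sign on the deposited scale, 5 with run medians set to 0, and 0 of 28 when disagreeing or single spots were left out. The borrowed-spread test of day 8 gave no value, since no member was in at least 3 of its columns.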
